A study of Homo sapiens with 6 samples.

Results

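Polycomb repressive complex 2 (PRC2) was followed through 10 genes: the catalytic subunits EZH1 and EZH2, the core subunits EED and SUZ12, the histone-binding subunits RBBP4 and RBBP7, and the accessory subunits JARID2, AEBP2, PHF19 and MTF2. The genes were chosen by name as subunits of the complex, with earlier results of these data known. All 10 were found by symbol among the 60609 genes of the count files. Each of the 10 passed the filter on low counts, as did 19114 genes in all. Poly(A) RNA was sequenced from K-562 (K562), an established human leukemia line with erythroid features. Endogenous EP400, the scaffold and ATPase of the TIP60 acetyltransferase and remodeling complex, carried a homozygous degradation tag (dTAG). The endogenous protein was removed with 500 nM of the degrader dTAGV-1 for 24 h. The 3 WT libraries came from cells complemented with wild-type EP400 expressed from the AAVS1 safe harbor site. The 3 Delta-TRRAP libraries came from cells complemented with EP400 that lacks the SANT and HD domains, which hold the TRRAP module.

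All 6 libraries shared the tagged endogenous EP400, the degrader, its dose and its duration, and no untreated or parental library was analysed here. Each complemented line was 1 clone, so the genotype and the clone cannot be told apart, and the replicates do not measure the variation between clones. The comparison asked how steady-state RNA differs when TIP60 lacks its TRRAP module.

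PRC2 places methyl groups on lysine 27 of histone H3, and trimethylation of that residue marks silenced developmental genes. EZH1 or EZH2 supplies the methyltransferase, EED reads the methyl mark and stimulates the enzyme, SUZ12 holds the complex together, and RBBP4 or RBBP7 contacts histones. The core joins either JARID2 and AEBP2, in the form called PRC2.2, or a Polycomb-like protein (PHF1, MTF2 or PHF19), in the form called PRC2.1. In proliferating cells EZH2 is usually the main enzyme, whereas EZH1 is more widespread in resting cells, and in erythroid cells a switch from EZH2 to EZH1 is known to accompany maturation.

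The libraries held 35076835 to 42616061 counts. Replicates of a group differed from each other by 5.02 to 16.3 times the variance that counting alone gives, with the widest gap between Delta-TRRAP replicates 2 and 3. Mitochondrial genes took 3.18 to 3.71% of counts in WT libraries and 5.07 to 6.24% in Delta-TRRAP libraries. The labels call the cells lymphoblasts. Of 11 lymphocyte markers, MS4A1 and CD8A had no count, 5 were tested, and 1 fell, against 27.6% of all genes tested. The marker that fell was PTPRC, which many blood cells express, at 16076 normalized counts in WT and 3928 in Delta-TRRAP. All 15 erythroid markers passed the filter. Among these erythroid markers 9 rose and 3 fell in Delta-TRRAP, against 30.7 and 27.6% of all genes tested. Of the 15, 12 averaged 1000 normalized counts or more, a class in which 22.1% rose and 45.9% fell. The erythroid markers summed to 230714 to 233048 normalized counts in the WT and 166992 to 171656 in the Delta-TRRAP libraries. Most of the sum came from the transferrin receptor gene TFRC, and none of the 15 was at 0. Of 10 fibroblast markers 5 were tested and 3 rose, each of which passed the filter only through Delta-TRRAP and so had to differ, with LUM and PDGFRA at 0 in every library and sums of 35.5 to 58.0 normalized counts per WT library and 929 to 991 per Delta-TRRAP library, mostly of COL1A2. The part of these markers in the members' results was not tested. In bulk RNA, fewer cells of a type and less RNA per cell cannot be told apart.

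EP400 itself (ENSG00000183495.13, hg38, chromosome 12, 131949942 to 132080460) gave normalized counts of 4897, 4897 and 5377 in WT and 5533, 6833 and 4357 in Delta-TRRAP. The groups overlapped, and the log2 fold change of 0.14 ± 0.11 (SE) did not pass the test (edgeR quasi-likelihood, Benjamini-Hochberg adjusted p = 0.272). Gene counts do not separate the endogenous transcript from the transgene, so they check neither the loss of the tagged protein nor the deletion. Normalized counts here are deposited counts divided by the scaled depth of each library, and fold changes are Delta-TRRAP over WT throughout.

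Promoters are shown for EZH1, the member that rose, for its paralog EZH2, to compare the catalytic genes, and for EED and PHF19, the members that fell furthest. The bases are the 250 that precede a RefSeq start (GRCh38.p14, 5′ to 3′ on the gene's strand). Capitals mark a match to an E2F-type motif, which was searched on both strands as TTTCGCGC, TTTGGCGC, TTTCCCGC and TTTGCCGC.
EZH1, chr17:42745041-42745290, minus strand: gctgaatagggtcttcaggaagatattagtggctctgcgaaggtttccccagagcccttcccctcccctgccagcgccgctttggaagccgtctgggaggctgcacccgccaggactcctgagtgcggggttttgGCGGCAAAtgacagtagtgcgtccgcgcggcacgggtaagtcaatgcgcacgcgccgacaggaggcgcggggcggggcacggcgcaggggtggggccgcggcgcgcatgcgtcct
EZH2, chr7:148884292-148884541, minus strand: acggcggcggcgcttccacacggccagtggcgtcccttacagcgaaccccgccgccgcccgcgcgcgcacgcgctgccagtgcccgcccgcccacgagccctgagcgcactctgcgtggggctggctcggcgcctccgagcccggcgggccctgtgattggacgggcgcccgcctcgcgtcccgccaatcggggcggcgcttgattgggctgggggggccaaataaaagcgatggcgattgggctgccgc
EED, chr11:86244503-86244752, plus strand: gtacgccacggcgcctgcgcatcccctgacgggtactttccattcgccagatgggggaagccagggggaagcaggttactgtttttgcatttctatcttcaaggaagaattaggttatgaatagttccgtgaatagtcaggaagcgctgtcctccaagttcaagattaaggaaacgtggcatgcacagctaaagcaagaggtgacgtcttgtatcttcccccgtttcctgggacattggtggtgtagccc
PHF19, chr9:120877189-120877438, minus strand: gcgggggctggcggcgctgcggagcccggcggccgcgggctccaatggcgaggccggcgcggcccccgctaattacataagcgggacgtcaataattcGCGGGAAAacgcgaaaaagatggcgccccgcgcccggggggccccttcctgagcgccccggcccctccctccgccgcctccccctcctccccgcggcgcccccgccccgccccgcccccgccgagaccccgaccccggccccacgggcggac

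Across the 10 members RefSeq listed 15 such windows. The E2F-type motif was found in 4 of them, 1 each of EZH1, SUZ12, AEBP2 and PHF19, against 2.79% of all 35116 promoter windows of this length. The PHF19 window not shown holds no match. That share was not matched for GC content, which was 64.4% (MTF2) or more in every member window except that of EED. Of the windows shown, those of EZH1 and PHF19 hold the motif, and those of EZH2 and EED do not. A link between the motif and RNA levels was not tested. The CCAAT box (CCAAT, both strands) lay in 10 of the 15 windows, in 7 members, against 32.01% of all windows. Both RBBP4 windows are among the 10 and overlap, so a box 54 bases before the start in the first is the box at 202 bases in the second. The EZH2 window shown holds 4 CCAAT boxes and the EED window 1, at 16 bases before the start. The E-box CACGTG was found in an RBBP4 window and in 6.34% of all windows, and the CHR element (TTTGAA or TTCGAA) in the SUZ12 window and in 14.3% of all windows. The EED window had a GC content of 51.2% with 11 CpG dinucleotides, against a median of 58% and 11 over all windows. In contrast, the shown windows of EZH1, EZH2 and PHF19 had GC contents of 67.6, 75.6 and 79.2%. A match describes these letters only and was not tested for binding.

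**Figure D1:**
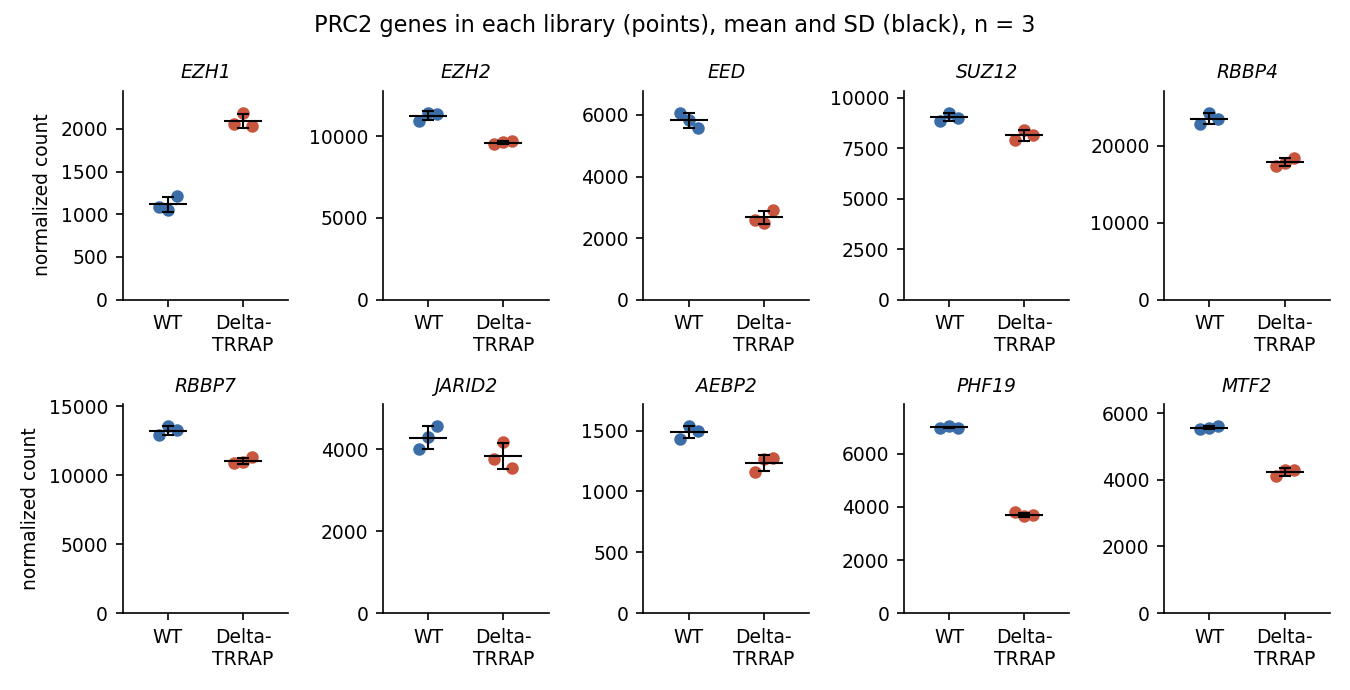
Normalized counts (y axis, linear, from 0) of the 10 PRC2 genes in each of 3 WT (blue) and 3 Delta-TRRAP (red) libraries, with the mean and SD in black. EZH1 is the member whose Delta-TRRAP libraries lie above WT, and JARID2 is the member whose groups overlap.

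PRC2 transcripts were mostly lower in Delta-TRRAP, with the exception of EZH1. At an adjusted p of 0.01 or less, 7 of the 10 members fell, EZH1 rose, and SUZ12 and JARID2 did not pass (edgeR quasi-likelihood, Benjamini-Hochberg over all genes tested). Of all genes tested, 58.3% passed, 27.6% lower and 30.7% higher. Averaged over the 6 libraries, all 10 members reached 1000 normalized counts, and among the 6804 genes that did so 45.9% fell and 22.1% rose. The members' median log2 fold change was −0.27, against 0.03 over all genes tested and −0.14 over that class. With library size or upper quartile scaling, which raised the median of all genes by 0.13 and 0.10, 4 members fell and 1 rose, and every member kept its sign. Under those scalings 21.3 and 22.6% of all genes tested fell, and 34.4 and 37% of the genes averaging 1000 counts or more, so 4 of 10 was near the share of the members' own class.

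Requiring a fold of at least 2 as well left EED alone, lower in Delta-TRRAP. By that rule 22.6% of all genes tested passed, 6.08% lower and 16.5% higher, and 3.89% of those averaging 1000 counts or more were lower. With library size scaling EED missed that fold (log2 fold change −0.99) and EZH1 passed it (1.04), and with upper quartile scaling both passed (EZH1 1.01). The groups did not overlap for 8 members lower in Delta-TRRAP and for EZH1, higher, against 33.7 and 37.4% of all genes tested and 71.1% in either direction. Among genes averaging 1000 counts or more these shares were 51.7, 26.6 and 78.3%. Counting error at the lowest count of each member was 0.758% (RBBP4) to 3.05% (EZH1). Of 18 proliferation markers 15 fell and 1 rose, and 12 fell with library size and with upper quartile scaling. All 18 averaged 1000 counts or more, a class in which 45.9% fell and 22.1% rose. Under those scalings 34.4 and 37% of that class fell. Summed, the markers ran from 183856 to 194051 normalized counts in WT libraries and from 136357 to 144583 in Delta-TRRAP libraries, with none at 0. Their part in the members' differences was not tested.

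**Figure D2:**
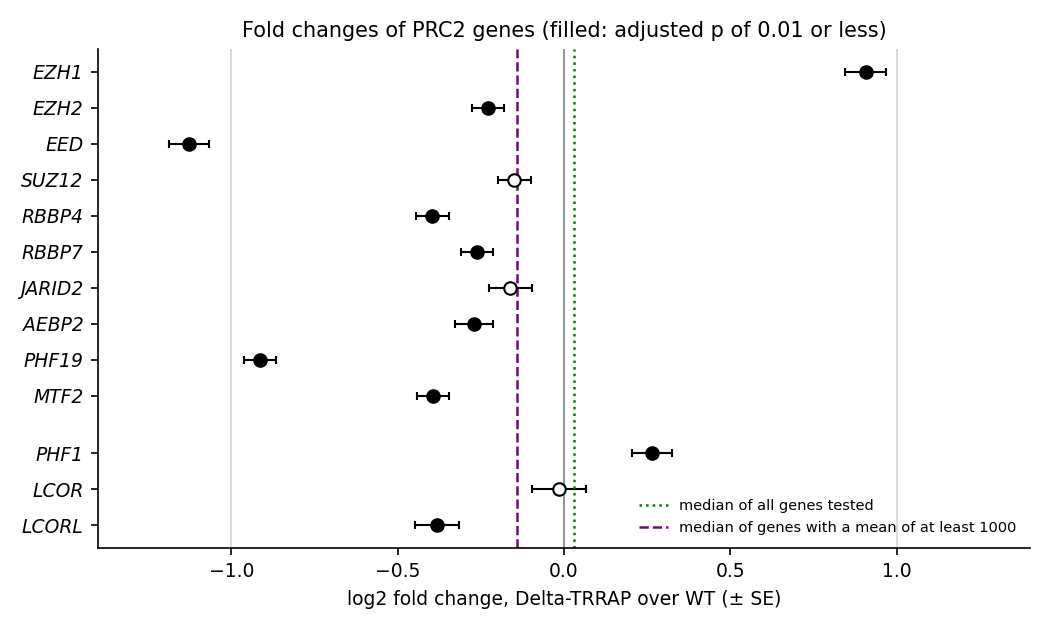
Log2 fold changes (x axis, Delta-TRRAP over WT) with SE for the 10 PRC2 genes and, below the gap, 3 other PRC2 accessory genes, filled where the adjusted p is 0.01 or less. Dotted and dashed lines mark the medians of all genes tested (0.03) and of genes averaging 1000 or more (−0.14), and grey lines mark a fold of 2; EED lies beyond the line on the left.

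The catalytic subunits moved in opposite directions. EZH1 (ENSG00000108799.13, chromosome 17, 42700275 to 42745049, minus strand) had normalized counts of 1086, 1048 and 1217 in WT and 2055, 2188 and 2039 in Delta-TRRAP. Every Delta-TRRAP library was above every WT library, and the mean rose from 1117 ± 88.4 to 2094 ± 81.3 (SD, n = 3). That is a 1.87-fold rise, or a log2 fold change of 0.91 ± 0.06 (edgeR quasi-likelihood, adjusted p = 4.03e-09). EZH2 (ENSG00000106462.10, chromosome 7, 148807257 to 148884321, minus strand) had 10952, 11433 and 11389 in WT and 9523, 9629 and 9696 in Delta-TRRAP. Its groups did not overlap either, but in the other direction. The EZH2 mean fell by 14.6%, a log2 fold change of −0.23 ± 0.05 (edgeR quasi-likelihood, adjusted p = 0.000598). The call of EZH2 was lost under library size scaling (log2 fold change −0.094, adjusted p = 0.0878) and upper quartile scaling (−0.13, adjusted p = 0.0298).

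A ratio within a library does not depend on the scaling between libraries. Per kilobase of merged exon, the level of EZH1 was 0.153, 0.141 and 0.165 times that of EZH2 in WT and 0.333, 0.350 and 0.324 times in Delta-TRRAP. The log2 ratio was thus higher by 1.14 in Delta-TRRAP, with no overlap between groups (−2.71 ± 0.11 in WT and −1.58 ± 0.06 in Delta-TRRAP, SD, n = 3, two-sided exact permutation p = 0.1). With 3 libraries against 3, 0.1 is the smallest p this test can give, and it was 0.1 for each of the 3 ratios computed, also after Benjamini-Hochberg adjustment. EZH1 made up 13.3% ± 0.878 of the summed EZH1 and EZH2 level per kilobase in WT and 25.1% ± 0.740 in Delta-TRRAP (SD, n = 3). These shares depend on the length chosen: per kilobase of the Ensembl canonical transcript the WT libraries gave 4.99 to 5.77% and the Delta-TRRAP libraries 10.8 to 11.5%.

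EED, which binds trimethylated lysine 27 and stimulates the enzyme, had the lowest log2 fold change of the members. EED (ENSG00000074266.21, chromosome 11, 86201212 to 86278813, plus strand) had 6065, 5842 and 5579 normalized counts in WT and 2600, 2503 and 2908 in Delta-TRRAP. The groups were far apart, and the highest Delta-TRRAP library lay well under the lowest WT library. The mean went from 5829 ± 244 to 2670 ± 211 (SD, n = 3), a 2.18-fold fall and a log2 fold change of −1.13 ± 0.06 (edgeR quasi-likelihood, adjusted p = 3.08e-10).

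SUZ12, the scaffold on which the other subunits assemble, differed little. SUZ12 (ENSG00000178691.11, chromosome 17, 31937007 to 32001038, plus strand) had 8865, 9260 and 8986 normalized counts in WT and 7896, 8414 and 8141 in Delta-TRRAP. All Delta-TRRAP libraries were below WT, with means 9.81% apart, yet the log2 fold change of −0.15 ± 0.05 did not pass the threshold (edgeR quasi-likelihood, adjusted p = 0.0147). It passed with DESeq2 (−0.16, adjusted p = 0.00584) and without Delta-TRRAP replicate 2 (edgeR, −0.17, adjusted p = 0.00704). SUZ12P1 (ENSG00000264538.6, chromosome 17, 30731886 to 30776402), a transcribed copy of part of SUZ12, averaged 755 ± 60.3 in WT and 823 ± 86.8 in Delta-TRRAP (SD, n = 3). Its groups overlapped (log2 fold change 0.12 ± 0.08, edgeR quasi-likelihood, adjusted p = 0.183). Since reads mapping to several places were discarded, reads from stretches that SUZ12 and SUZ12P1 share are missing from both, and the value of SUZ12 is uncertain to that extent.

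The histone-binding subunits RBBP4 and RBBP7, which PRC2 shares with other chromatin complexes, both fell. RBBP4 (ENSG00000162521.19, chromosome 1, 32651142 to 32686211, plus strand) had 22843, 24228 and 23393 normalized counts in WT and 17352, 17788 and 18417 in Delta-TRRAP. RBBP7 (ENSG00000102054.17, chromosome X, 16839283 to 16870362, minus strand) had 12920, 13537 and 13256 in WT and 10893, 10932 and 11312 in Delta-TRRAP. Neither gene's groups overlapped. RBBP4 fell by 24.0% (log2 fold change −0.40 ± 0.05, edgeR quasi-likelihood, adjusted p = 4.64e-06). RBBP7 fell by 16.6% (−0.26 ± 0.05, edgeR quasi-likelihood, adjusted p = 0.000204). The call of RBBP7 was lost under library size scaling (−0.13, adjusted p = 0.0271) and upper quartile scaling (−0.16, adjusted p = 0.0103), whereas that of RBBP4 held. The level of RBBP4 per kilobase was 1.37 to 1.39 times that of RBBP7 in WT and 1.23 to 1.26 times in Delta-TRRAP. The ratio was therefore lower in every Delta-TRRAP library, by 0.13 on the log2 scale (two-sided exact permutation p = 0.1). Processed copies of RBBP4 take few counts: the most abundant, RBBP4P1, averaged 93.2 ± 9.36 in WT and 68.0 ± 14.6 in Delta-TRRAP (SD, n = 3), and RBBP4P6 had none. Reads that RBBP4 shares with these copies were likewise discarded.

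Among the PRC2.2 subunits, JARID2, which binds nucleosomes and helps recruit the complex, did not pass the test. JARID2 (ENSG00000008083.14, chromosome 6, 15246069 to 15522042, plus strand) had 3991, 4298 and 4552 normalized counts in WT and 3768, 4168 and 3546 in Delta-TRRAP. Delta-TRRAP replicate 2 was above WT replicate 1, so the groups overlapped (log2 fold change −0.16 ± 0.07, edgeR quasi-likelihood, adjusted p = 0.0387). Without that library the value was −0.23 (edgeR, adjusted p = 0.00182), and over the fits without 1 library it ran from −0.23 to −0.11. AEBP2 (ENSG00000139154.15, chromosome 12, 19404045 to 19720801, plus strand), a zinc finger protein that stabilizes the complex, had 1433, 1535 and 1500 in WT and 1163, 1266 and 1276 in Delta-TRRAP. Its groups did not overlap, and AEBP2 fell by 17.1% (log2 fold change −0.27 ± 0.06, edgeR quasi-likelihood, adjusted p = 0.000551). That call was lost under library size scaling (−0.14, adjusted p = 0.0379) and upper quartile scaling (−0.17, adjusted p = 0.0150).

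The Polycomb-like subunits of PRC2.1, which bind unmethylated CpG-rich DNA and methylated lysine 36 of histone H3, did not move together. PHF19 (ENSG00000119403.15, chromosome 9, 120855651 to 120894896, minus strand) had 6980, 7029 and 6971 normalized counts in WT and 3796, 3654 and 3683 in Delta-TRRAP. The libraries of each group lay close together and the groups far apart: PHF19 fell 1.88-fold, from 6993 ± 31.6 to 3711 ± 75.1 (SD, n = 3, log2 fold change −0.91 ± 0.05, edgeR quasi-likelihood, adjusted p = 2.08e-10). MTF2 (ENSG00000143033.18, chromosome 1, 93079235 to 93139079, plus strand) had 5514, 5553 and 5600 in WT and 4108, 4305 and 4281 in Delta-TRRAP. Its groups did not overlap, and MTF2 fell by 23.8% (−0.39 ± 0.05, edgeR quasi-likelihood, adjusted p = 2.99e-06). PHF1, the remaining paralog, which was not among the 10 members, rose from 572 ± 14.8 to 686 ± 7.58 (SD, n = 3, log2 fold change 0.26 ± 0.06, edgeR quasi-likelihood, adjusted p = 0.00116).

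The summed level per kilobase of JARID2 and AEBP2 was 0.395, 0.422 and 0.440 times that of PHF1, MTF2 and PHF19 in WT and 0.531, 0.579 and 0.513 times in Delta-TRRAP. The balance of transcripts thus stood 1.29-fold further toward PRC2.2 in Delta-TRRAP, with no overlap between groups (two-sided exact permutation p = 0.1). The PRC2.2 genes themselves did not rise, with log2 fold changes of −0.16 (JARID2, not called) and −0.27 (AEBP2). Those of PHF19 and MTF2 were lower still (−0.91 and −0.39), and that of PHF1 was 0.26. Of the other PRC2.1 partners, EPOP had no count in any library. LCORL, which yields a PRC2-binding protein as does its paralog LCOR, fell from 1847 ± 11.2 to 1416 ± 155 (SD, n = 3, log2 fold change −0.38 ± 0.07, edgeR quasi-likelihood, adjusted p = 0.00012). LCOR had 2283 ± 103 in WT and 2258 ± 330 in Delta-TRRAP (SD, n = 3), which did not pass the test (edgeR quasi-likelihood, adjusted p = 0.878). EZHIP, an inhibitor of the enzyme, had 0 counts in WT and 2, 3 and 0 counts in Delta-TRRAP and was not tested.

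**Figure D3:**
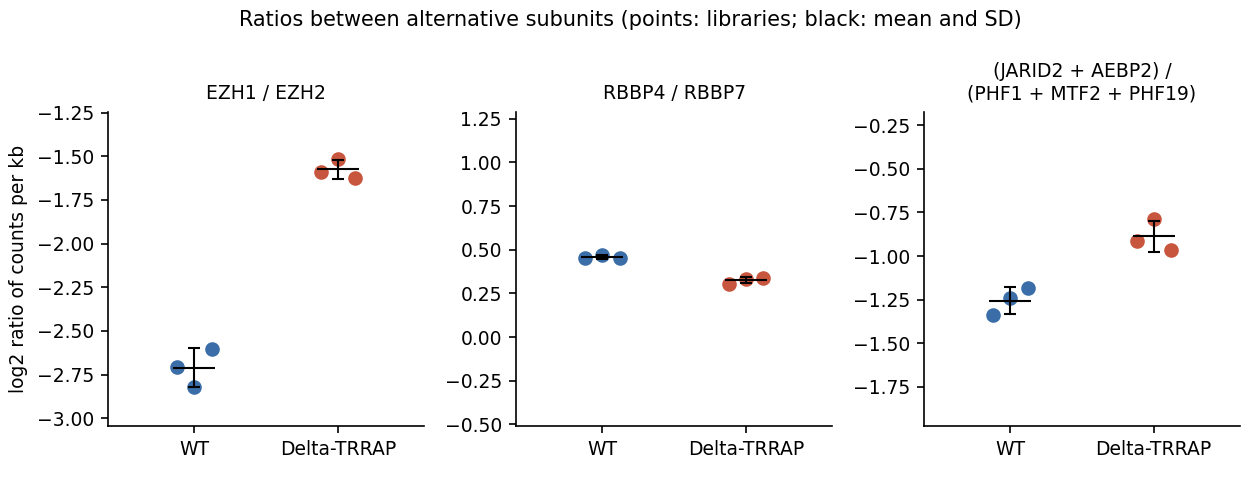
Log2 ratios of counts per kilobase of merged exon (y axis, each panel spanning the same range) for EZH1 to EZH2, RBBP4 to RBBP7, and PRC2.2 to PRC2.1 accessory subunits, in 3 WT (blue) and 3 Delta-TRRAP (red) libraries with mean and SD in black. The groups do not overlap in any panel, and the EZH1 to EZH2 difference of 1.14 exceeds those of the other panels (−0.13 and 0.37).

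The order of levels within the complex shifted where EED, PHF19 and EZH1 changed. Per kilobase of merged exon, mean levels in WT ran from RBBP4 (2480 normalized counts per kilobase) through RBBP7 (1804), SUZ12 (1379), PHF19 (1061), EZH2 (1045), MTF2 (941), EED (833), JARID2 (685) and AEBP2 (220.0) down to EZH1 (160). Of these neighbors only PHF19 and EZH2 overlapped between libraries. In Delta-TRRAP the levels ran from RBBP4 (1885) through RBBP7 (1505), SUZ12 (1244), EZH2 (892), MTF2 (716), JARID2 (613), PHF19 (563), EED (382) and EZH1 (299.7) to AEBP2 (182). There only JARID2 and PHF19 overlapped, the means of EED and PHF19 stood below that of JARID2, and EZH1 stood above AEBP2. The order rests on the length used. Per kilobase of canonical transcript, RBBP7 (5804 in WT) and EZH2 (4242) led in both groups, ahead of RBBP4 (2980), while EZH1 (241) and AEBP2 (255) overlapped at the bottom in WT and stood apart in Delta-TRRAP (452 and 212).

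Each member was then set beside the 20 nearest genes that averaged 100 normalized counts or more, 10 on each side, as a description of its surroundings in these clones. The windows differed in size, from 0.556 Mb for EZH1 to 10.5 Mb for EED, with 7.84 Mb for PHF19. The median log2 fold change of all 11442 genes averaging 100 or more was −0.09. EZH1 was above 19 of its 20 neighbors, whose median was 0.03. EED was below 19 of its 20 neighbors, whose median was −0.13. The nearest such genes on either side of EED, named after their values were seen, were PICALM, with a log2 fold change of −1.04, and HIKESHI, with −0.0026. PHF19 was likewise below 19 of its 20 neighbors, whose median was 0.13. RBBP4 was below 17 of 20 and EZH2 below 16 of 20, with neighbor medians of 0.0030 and 0.10. SUZ12 and MTF2 lay within their surroundings, below 11 and 12 of 20 neighbors. The medians for RBBP7, JARID2 and AEBP2 were 0.03, 0.06 and 0.08. Over the 10 members the neighbor medians ran from −0.18 (MTF2) to 0.13 (PHF19).

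**Figure D4:**
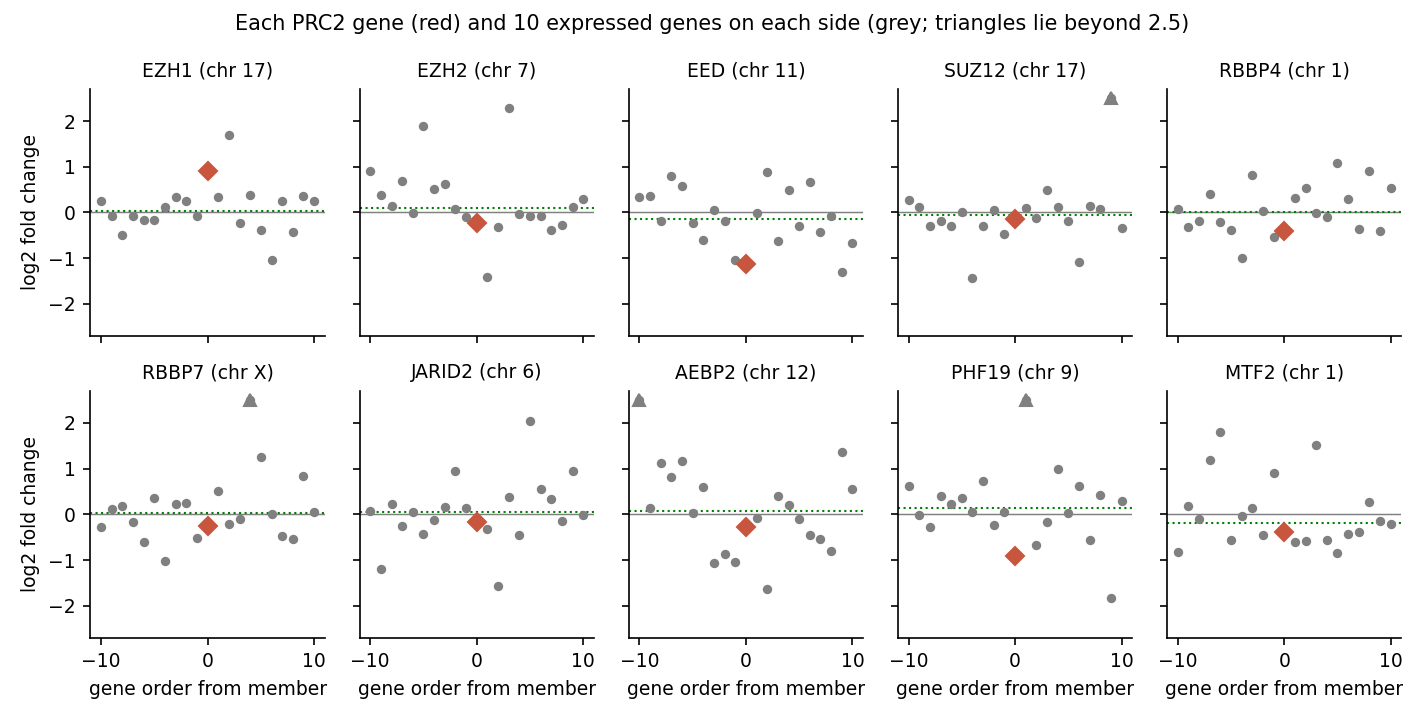
Log2 fold changes (y axis) of each PRC2 gene (red diamond) and of the 10 genes on each side that average 100 normalized counts or more (grey, triangles lie beyond the axis), in gene order along the chromosome (x axis). The dotted line is the neighbors' median; EZH1 stands above and EED and PHF19 below 19 of 20 neighbors.

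Other Polycomb machinery was described from lists of genes, by counts and medians alone. PRC1, which ubiquitylates histone H2A and compacts chromatin at PRC2-marked genes, had 26 genes tested, of which 7 fell and 8 rose. Of all genes tested, 27.6% fell and 30.7% rose. However, 19 of the 26 averaged 1000 counts or more, a class in which 45.9% fell and 22.1% rose. The median log2 fold change of the PRC1 genes was 0.07, against 0.03 over all genes tested and −0.14 over that class. CBX2, a chromodomain reader of the PRC2 mark, went from 1734 ± 32.1 to 689 ± 52.8 normalized counts (SD, n = 3, log2 fold change −1.33 ± 0.06, edgeR quasi-likelihood, adjusted p = 4.92e-11). KDM2B, which brings variant PRC1 to CpG islands, fell from 3124 ± 85.9 to 1416 ± 77.2 (SD, n = 3, −1.14 ± 0.05, edgeR quasi-likelihood, adjusted p = 7.76e-11). CBX2 and KDM2B were the PRC1 genes that fell at least 2-fold. CBX7, another chromodomain reader, rose from 170.2 ± 19.5 to 255 ± 2.28 (SD, n = 3, 0.58 ± 0.10, edgeR quasi-likelihood, adjusted p = 9.52e-05).

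Of the enzymes that remove the PRC2 mark, KDM6B rose from 749 ± 44.2 to 1035 ± 58.5 normalized counts (SD, n = 3, log2 fold change 0.47 ± 0.06, edgeR quasi-likelihood, adjusted p = 1.07e-05). KDM6A had 2949 ± 107 in WT and 2659 ± 205 in Delta-TRRAP (SD, n = 3), overlapping groups that did not pass the test (−0.15 ± 0.06, edgeR quasi-likelihood, adjusted p = 0.0368). It passed without Delta-TRRAP replicate 2. Of 10 genes of PR-DUB, the deubiquitinase that opposes PRC1, 7 averaged 1000 counts or more, a class in which 45.9% fell and 22.1% rose. Among the 10, 2 fell and 3 rose, with a median of 0.09, against 27.6 and 30.7% of all genes tested. Under library size and upper quartile scaling 1 was lower and 5 higher. The medians there were 0.22 and 0.19, against 0.16 and 0.13 over all genes tested. Of all genes tested 21.3 and 22.6% fell under those scalings, as did 34.4 and 37% of that class, and the share that rose was not counted. The count was 1 lower when any single WT library or Delta-TRRAP replicate 1 was left out (3 lower without Delta-TRRAP replicate 2). MBD6 and MBD5, which bind the complex, rose from 537 ± 40.1 to 950 ± 90.4 and from 762 ± 25.0 to 1152 ± 34.4 (SD, n = 3). ASXL1, a cofactor of the deubiquitinase, fell from 4436 ± 116 to 3153 ± 239 (SD, n = 3, log2 fold change −0.49 ± 0.06, edgeR quasi-likelihood, adjusted p = 2.02e-06). The rise of at least 2-fold in that list was ASXL3, named after its values were seen, at 1.32 ± 0.521 normalized counts in WT and 95.5 ± 9.73 in Delta-TRRAP (SD, n = 3). ASXL3 passed the filter only through Delta-TRRAP, so it had to differ, and its call is no support for the count.

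RBBP4 and RBBP7 also serve NuRD, SIN3 and CAF-1, which remodel, deacetylate and assemble nucleosomes. Of 23 further genes of these complexes 11 fell and 1 rose, with a median log2 fold change of −0.17 and 21 values below 0 (12 with library size scaling). Of all genes tested, 27.6% fell and 30.7% rose. Of the 23 genes, 21 averaged 1000 counts or more, a class in which 45.9% fell, 22.1% rose and the median was −0.14. The count of falls was thus near the class share, whereas that of rises was below it. CDK2AP1, a NuRD subunit, fell from 3584 ± 123 to 1140 ± 47.2 normalized counts (SD, n = 3, −1.65 ± 0.05, edgeR quasi-likelihood, adjusted p = 1.01e-12). The deacetylase gene HDAC2 fell from 17919 ± 853 to 11677 ± 330 (SD, n = 3), a log2 fold change of −0.62 ± 0.05. SAP30, a SIN3 subunit, fell from 1440 ± 35.9 to 959 ± 68.4 (SD, n = 3), a log2 fold change of −0.59 ± 0.06. Among the proliferation markers, whose median was −0.35, the S-phase cyclin gene CCNE1 fell from 2267 ± 40.1 to 974 ± 19.7 (SD, n = 3), the topoisomerase gene TOP2A from 40775 ± 1989 to 20829 ± 1302, and CDC20, an activator of the anaphase-promoting complex, from 6055 ± 164 to 3316 ± 131.

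**Figure D5:**
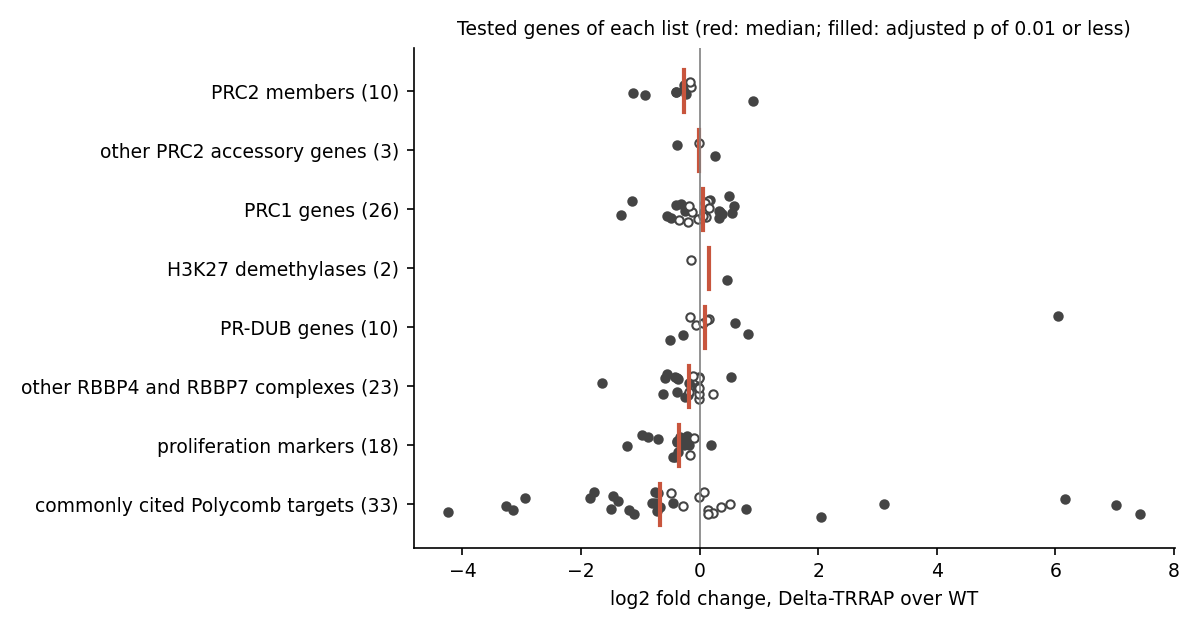
Log2 fold changes (x axis, Delta-TRRAP over WT) of the tested genes in each list, with the number tested in brackets, the median in red and genes at an adjusted p of 0.01 or less filled. The PRC2 median of −0.27 lies between that of the other RBBP4 and RBBP7 complexes (−0.17) and that of the proliferation markers (−0.35), and the commonly cited Polycomb targets spread from −4.24 to 7.43.

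Genes commonly cited as Polycomb targets are developmental regulators that PRC2 silences in many cell types, and whether they carry the mark in these cells was not measured. Of 78 listed, 22 had no count, 33 passed the filter, and 30 of the 33 had a mean below 1000 normalized counts. Of the 33, 18 fell and 6 rose, against 17.5% lower and 35.5% higher among all genes with a mean of 5 to 1000. A target that passed only through the group in which it was high had to differ, so these counts describe the genes that passed the filter. The homeobox gene EN1 fell from 274 ± 19.3 normalized counts in WT (SD, n = 3) to 12.7, 13.6 and 16.9 in Delta-TRRAP (log2 fold change −4.24 ± 0.16, edgeR quasi-likelihood, adjusted p = 3.51e-12). Another homeobox pair, DLX2 and DLX1, fell from 293 ± 28.8 to 30.3 ± 6.78 and from 1533 ± 18.7 to 173 ± 13.3 (SD, n = 3), log2 fold changes of −3.26 ± 0.15 and −3.14 ± 0.07. HAND2, which encodes a transcription factor of heart and limb development, rose from 215 ± 5.65 to 369 ± 38.2 (SD, n = 3, 0.78 ± 0.09, edgeR quasi-likelihood, adjusted p = 2.01e-06).

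Further rises among these targets, named after their values were seen, were of genes with few counts in WT. PAX3 averaged 0.640 ± 1.11 normalized counts in WT and 136 ± 8.67 in Delta-TRRAP (SD, n = 3), and ZIC1 2.03 ± 1.76 and 152 ± 36.3. TBX3 and CYP26A1 went from 6.37 ± 3.63 to 26.5 ± 4.51 and from 3.01 ± 2.72 to 26.8 ± 5.82. Of these, PAX3, ZIC1 and CYP26A1 averaged under 5 in WT. They passed the filter only through Delta-TRRAP and so had to differ, and their calls are no support for the count of rises. PAX3, ZIC1 and TBX3 encode developmental transcription factors, and CYP26A1 a retinoic acid hydroxylase.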

How the data were processed

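Poly(A) RNA-seq libraries of 6 samples (3 per group, grouped and numbered by the sample titles) were analysed. The authors aligned uniquely mapping reads to hg38 with STAR, counted them per GENCODE 32 gene with HTSeq 2.0.2 (reverse-stranded, union mode) and deposited raw counts, which are not normalized. The authors' normalized table (of 9 libraries, 3 being per-sample columns of a condition not studied here) and their comparison table (fold changes and p-values) were not used.

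Counts were tested with edgeR 4.0.16 (R 4.3.3, limma 3.58.1): TMM scaling, quasi-likelihood F tests in a model of group alone, 19114 of 34998 genes with a count kept because they averaged 5 normalized counts or more, and Benjamini-Hochberg adjustment over all of them. A gene was called at an adjusted p of 0.01 or less, and by a stricter rule also at a fold of at least 2, as in the study, which used DESeq2. Depth was 35076835 to 42616061 counts per library. The labels call the samples biological replicates, of which each group's came from 1 clone, and how the replicates were grown is not given. The p-values therefore set a group difference against the spread between replicates of 1 clone. Ratios were compared with two-sided exact permutation tests. Gene positions, merged exon lengths and canonical transcripts came from GENCODE 44 on the same assembly, and promoters from RefSeq (GRCh38.p14), where all 10 members matched. The fit was tested on simulated data in which few genes changed, as many up as down. In the real data 58.3% of genes tested passed, so the simulation does not check the scaling.

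Named genes were the members, EP400, PHF1, EPOP, LCOR, LCORL, EZHIP, KDM6A and KDM6B, plus up to 3 genes with the largest absolute log2 fold change in each of the PRC1, PR-DUB, RBBP4 and RBBP7 complex and proliferation lists. For the Polycomb targets, up to 3 falls and 3 rises were named, and 1 gene of that list is not reported here. These list genes needed an adjusted p of 0.01 or less and an average of 100 normalized counts or more. The members and lists were chosen with earlier results of these data known. Alternatives were RLE, library size and upper quartile scaling, DESeq2 1.42.0, limma-voom, no filter or a minimum mean of 50, an adjusted p of 0.05, a fold of 1.5, a replicate block, each library left out, and, added after seeing the data, canonical transcript lengths.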

Additional observations from a re-analysis of the deposited data

How the results depend on the processing

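Of the members' fold changes under each alternative, 128 kept their side of the threshold, 6 gained the call and 6 lost it, and none changed sign. Members past the adjusted p, 8 in all and 7 lower, numbered 5 and 4 under library size and under upper quartile scaling. The calls lost there were EZH2 (−0.094 and −0.13), RBBP7 (−0.13 and −0.16) and AEBP2 (−0.14 and −0.17). Calls gained were SUZ12 with DESeq2 (−0.16), limma-voom (−0.15) and no filter (−0.17), and JARID2 with no filter (−0.19). Without 1 library, members past the adjusted p numbered 8 to 10, with SUZ12 from −0.17 to −0.13 and JARID2 from −0.23 to −0.11, and both passed only without Delta-TRRAP replicate 2. Past a fold of 2, library size scaling left 0 lower and 1 higher, upper quartile scaling 2 in all with 1 higher, and a fold of 1.5 gave 3, of which 2 lower and 1 higher. Library size and upper quartile scaling raised the median of all genes by 0.13 and 0.10. PRC1 genes that rose numbered 13 with library size scaling. H3K27 demethylases called numbered 2, with 1 lower, without a filter and at an adjusted p of 0.05 (1 to 2, and 0 to 1 lower, without 1 library). PR-DUB genes numbered 1 lower and 5 higher under library size and upper quartile scaling, and 1 lower with a minimum mean of 50 and with the replicate block (1 to 3 without 1 library, 1 when any single WT library or Delta-TRRAP replicate 1 was left out). The other RBBP4 and RBBP7 complexes had 2 higher with library size scaling and no filter (1 to 2 without 1 library, 2 without Delta-TRRAP replicate 2). Proliferation markers had 0 to 1 higher without 1 library, 0 without WT replicate 2 or Delta-TRRAP replicate 1. The cause of these moves was not tested.

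Same-numbered libraries did not deviate together (correlations of −0.035 to −0.011 across genes), and no library correlated best with its own number, so the numbers are not taken as a pairing. With the replicate block 8 members passed, 7 lower and 1 higher. The 3 ratios kept their direction under each alternative, the canonical transcript length included, but an exact test of 3 libraries against 3 cannot pass the threshold. Counting error was small for every member (at most 3.05% at its lowest count). The libraries hold 1 clone per genotype, RNA only, and no measure of the histone mark or of protein.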
